A study of Homo sapiens with 14 samples.

Results

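The clustered protocadherin genes are 53 protein-coding genes of chromosome 5, among 19970 protein-coding genes of the autosomes and X. They were taken as every such gene of GENCODE release 44 on that chromosome (hg38) whose symbol starts with PCDHA, PCDHB or PCDHG and goes on with a letter or number. The alpha cluster has 15 of them (chr5:140786136-141012347), the beta cluster 16 (chr5:141051374-141249365) and the gamma cluster 22 (chr5:141330514-141512977), and all lie on the plus strand. Chromatin was profiled by CUT&RUN, which cuts and releases DNA next to an antibody-bound protein, in TC-32, a cell line of Ewing sarcoma that carries the EWSR1::FLI1 fusion and was labelled wild type and untreated. Of 14 libraries, 4 were made with a FLI1 antibody (set A replicates 1 and 2, set B replicates 1 and 2), 2 with H3K27ac (set A), 2 with H3K9me3 (set B), 2 with H3K27me3 (set B) and 4 with control IgG (both sets). The labels do not say what sets A and B are, nor whether replicates are separate cultures, so the spread between replicates may be technical.

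Clustered protocadherins are cell adhesion proteins of the cell surface, best known from neurons, where each cell uses its own combination of them to tell its own branches from those of other cells. In the alpha and gamma clusters each gene has a large variable first exon with its own promoter, which is spliced to constant exons shared by the whole cluster, while the beta genes carry no constant exons. Most of these promoters share a short conserved sequence element with CGCT at its core and are chosen through CTCF and cohesin, and the last genes of the alpha and gamma clusters, called C-type, are regulated apart from the rest. H3K9me3 is a histone mark of silent heterochromatin, H3K27me3 is the mark of Polycomb repression, and H3K27ac marks active promoters and enhancers. FLI1 is an ETS factor that binds GGAA, and the fusion also binds repeats of GGAA.

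The promoters below are shown because the members differ in H3K9me3 from here on although nearly all carry CGCT before the start. Each run is the 100 bases before the start on the gene's strand, from the hg38 genome, and capitals mark CGCT. PCDHA2, PCDHGA5 and PCDHGB4 had most of the variable exon covered by H3K9me3 in both replicates, PCDHA13 and PCDHB1 had none, PCDHAC1, PCDHAC2, PCDHGC3 and PCDHGC5 are C-type genes, and PCDHB2 and PCDHGB2 had FLI1 at the start in 3 libraries.
PCDHA2 (chr5:140794752-140794851): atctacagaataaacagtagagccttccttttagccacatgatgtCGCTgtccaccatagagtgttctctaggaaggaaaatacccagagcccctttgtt
PCDHA13 (chr5:140882024-140882123): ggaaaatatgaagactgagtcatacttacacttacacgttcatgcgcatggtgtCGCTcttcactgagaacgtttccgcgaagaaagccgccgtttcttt
PCDHAC1 (chr5:140926199-140926298): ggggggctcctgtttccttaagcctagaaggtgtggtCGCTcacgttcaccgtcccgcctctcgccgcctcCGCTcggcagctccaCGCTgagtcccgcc
PCDHAC2 (chr5:140966376-140966475): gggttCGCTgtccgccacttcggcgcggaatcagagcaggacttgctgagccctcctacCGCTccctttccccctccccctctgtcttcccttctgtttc
PCDHB1 (chr5:141051274-141051373): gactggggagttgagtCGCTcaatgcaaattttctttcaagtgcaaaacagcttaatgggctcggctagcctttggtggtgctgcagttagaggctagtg
PCDHB2 (chr5:141094515-141094614): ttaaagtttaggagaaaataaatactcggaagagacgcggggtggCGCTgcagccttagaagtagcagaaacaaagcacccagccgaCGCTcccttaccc
PCDHGB2 (chr5:141359894-141359993): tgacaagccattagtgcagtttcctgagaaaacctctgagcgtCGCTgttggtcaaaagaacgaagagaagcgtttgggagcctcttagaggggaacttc
PCDHGA5 (chr5:141364062-141364161): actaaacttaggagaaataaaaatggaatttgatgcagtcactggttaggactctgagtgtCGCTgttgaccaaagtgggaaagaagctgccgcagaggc
PCDHGB4 (chr5:141387598-141387697): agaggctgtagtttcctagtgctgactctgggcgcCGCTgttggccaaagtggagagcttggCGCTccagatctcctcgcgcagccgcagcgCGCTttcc
PCDHGC3 (chr5:141475866-141475965): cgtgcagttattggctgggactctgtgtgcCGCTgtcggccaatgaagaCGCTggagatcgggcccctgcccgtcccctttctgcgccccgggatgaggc
PCDHGC5 (chr5:141488981-141489080): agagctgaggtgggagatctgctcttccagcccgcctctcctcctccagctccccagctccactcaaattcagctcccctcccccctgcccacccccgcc

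CGCT stood on the gene's strand within 100 bases of the start in 48 of 53 members (90.6%), against 36.2% of all protein-coding genes. The 5 members without it were PCDHA9, PCDHB6, PCDHB8, PCDHGA12 and PCDHGC5, a C-type gene. On either strand the share was 92.5% against 56.6%, and in the whole 250 bases before the start, either strand, it was 94.3% against 77.3%. The first CGCT lay a median of 58 bases before the start. All 5 members that had no H3K9me3 on the variable exon carried CGCT, as did 43 of the 48 others, so these 4 letters alone did not separate them. The rest of the conserved element was not searched, so whether the whole element separates them was not tested. The CTCF core AGNNGGCGC, searched on both strands, was found before PCDHB7 and PCDHB9 alone (3.77% of members against 11.3% of all genes), and a run of 4 GGAA units was found before none (0.02% of all genes). Only that fixed string in the 250 bases before the start was searched. Other forms of the CTCF site, and sites elsewhere, were not counted. Promoters of the members were poor in G and C, with a median of 37.2% against 63.2% over all genes, except for the 5 C-type genes with a median of 60%. Their long coding exons were instead rich in CpG: the observed to expected ratio had a median of 0.719, against 0.314 over the 1384 other genes with a coding exon of at least 1500 bases.

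The deposited lists give regions in which a library's signal passed the authors' peak caller over the IgG library of its set and number, so lists of the same set and number share a control. They held 10219 to 40590 regions each, without read counts, so the depth is unknown. Of 8 genes known as markers or FLI1 targets of Ewing sarcoma, 7 had FLI1 at the start in all 4 libraries and CD99, a surface marker of the tumour, had none. H3K27ac was listed at the start in both replicates for 1 of these 8, STEAP1. It was listed in neither replicate for 6, CCND1, NKX2-2 and NR0B1 among them, so the H3K27ac lists also lack starts of known FLI1 targets. The measure used for the members is the percent of a variable exon's bases that lie in the regions of a list, called its covered share. The plot of all 10 lists along the clusters shows the layout.

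**Figure D1:**
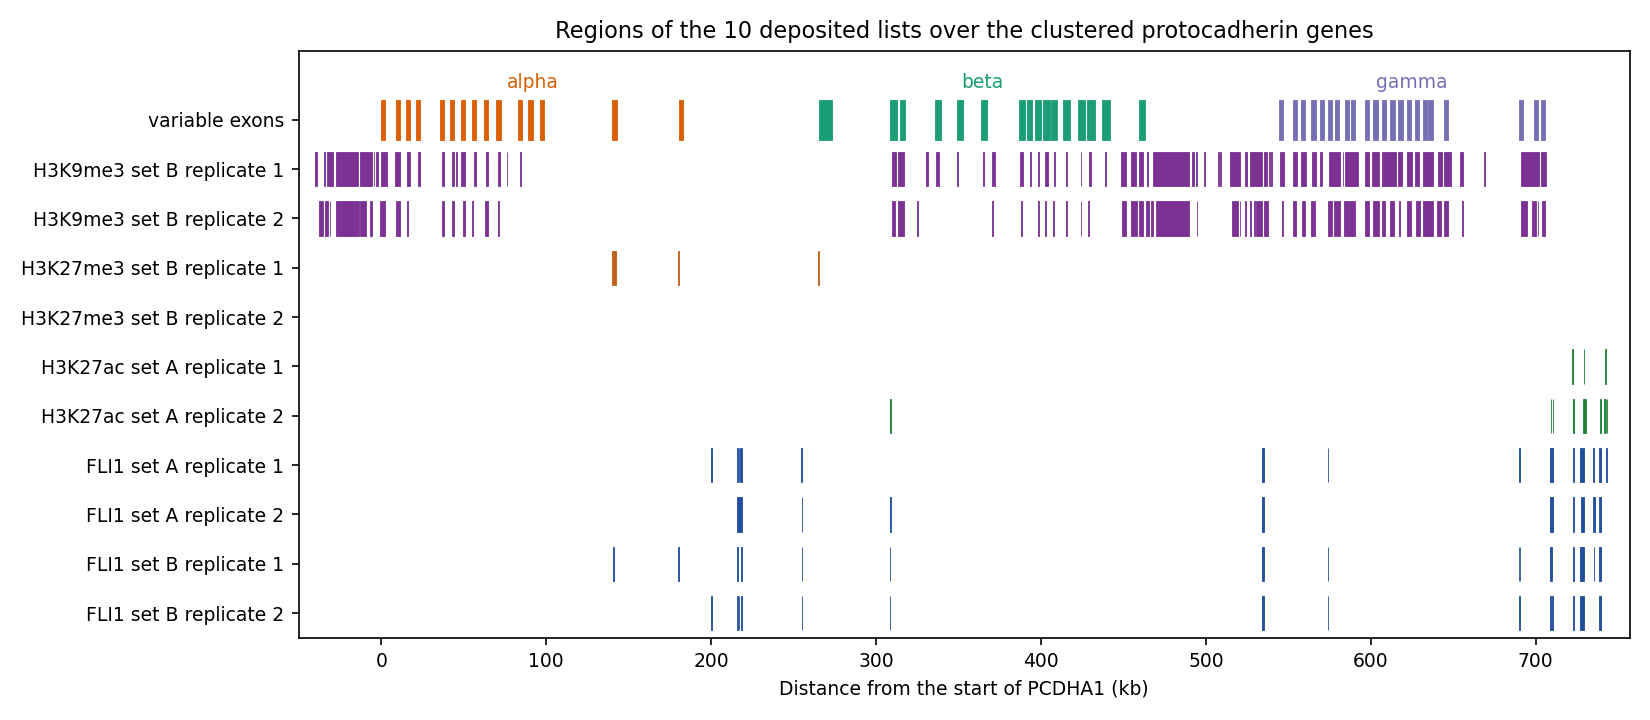
Regions of the 10 lists against distance from the start of PCDHA1 (kb, x axis), 1 row per library, with the variable exons of the alpha, beta and gamma genes in the top row. H3K9me3 lies on parts of all 3 clusters, with none from PCDHA12 through PCDHB1 in either replicate. H3K27me3 appears in replicate 1 alone, and FLI1 regions gather near the ends of alpha and gamma.

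H3K9me3 lay on the variable exons of all 3 clusters and was widest on gamma. The mean covered share over the 53 members was 59.2% in replicate 1 and 47.3% in replicate 2 (53.3% ± 8.42, SD, n = 2). It was 84.0% ± 8.84 over gamma, 37.7% ± 6.90 over alpha and 25.6% ± 9.28 over beta (SD, n = 2 each). Both replicates gave the same order. Gamma exceeded alpha by 47.6 and 44.9 percentage points in replicates 1 and 2 and beta by 58.0 and 58.6, each more than the spread between replicates. With 2 libraries the exact sign-flip test cannot go below its p of 0.5. Alpha exceeded beta by 10.4 and 13.8 points on the variable exon, but the single exons of beta genes also hold long untranslated ends. On the longest coding exon alone the mean covered share was 44.5% and 33.9% in alpha and 45.4% and 28.0% in beta, so that order did not hold in replicate 1.

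Among single genes, 40 of 53 had H3K9me3 on the variable exon in both replicates, 8 in 1 replicate and 5 in neither. By cluster, the 40 were 9 of 15 alpha, 10 of 16 beta and 21 of 22 gamma genes. For comparison with other genes, the longest coding exon was at least 50% covered in both replicates in 23 members, 3 alpha, 2 beta and 18 gamma, against 2.15% of all protein-coding genes. Any base of it was covered in both replicates in 40 members, against 2.54% of all genes. Of the other genes with a coding exon of at least 1500 bases, 154 of 1384 (11.1%) reached 50%. Zinc finger genes of chromosome 19, a family known for H3K9me3 over its exons, reached it in 180 of 249. The 23 members made up 5.35% of the 430 genes so covered. With regions of −log10 q of at least 5 alone, 4 members met that rule, against 1.06% of all genes, which were 212 in place of 430.

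**Figure D2:**
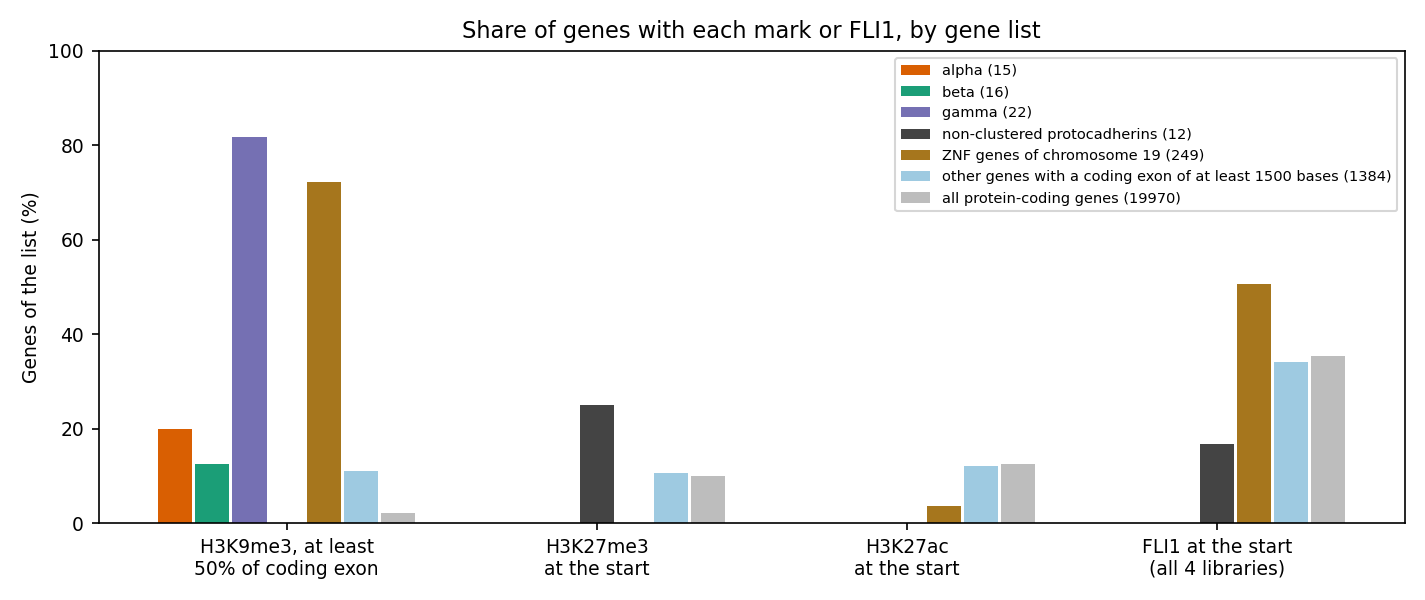
Percent of the genes of each list (y axis) that had H3K9me3 over at least 50% of the longest coding exon in both replicates, H3K27me3 or H3K27ac within 1 kb of the start in both replicates, or FLI1 there in all 4 libraries. Gamma stands near the zinc finger genes of chromosome 19 for H3K9me3, and no clustered protocadherin cluster has a bar for the other 3 measures.

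In the alpha cluster, H3K9me3 was wide on the first genes and not listed on the last. Outside the cluster, ahead of PCDHA1, it was also listed in both replicates. Its widest region there ran from −27.7 to −14.1 kb of that gene's start in replicate 1 and from −27.6 to −13.8 kb in replicate 2. PCDHA1, the first alpha gene, was covered over 96.3% and 92.8% of its variable exon in replicates 1 and 2, and PCDHA2 over 93.6% and 93.3%. PCDHA3 to PCDHA10 lay between 15.6% and 80.4%, except that PCDHA4 had 37.2% in replicate 1 and 0 in replicate 2. PCDHA11 had 21.6% and 0, and PCDHA12, PCDHA13 and the C-type genes PCDHAC1 and PCDHAC2 had 0 in both. Across the 15 alpha genes, position along the cluster and covered share had a Spearman's rho of −0.86 in replicate 1 and −0.73 in replicate 2. These are neighbouring genes of the same libraries, so the value is a description. The same measure was −0.19 and 0.15 over the 16 beta genes and 0.15 and −0.06 over the 22 gamma genes.

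In the beta cluster, most genes were covered in part. PCDHB3 was the most covered, with 82.4% and 78.3%, and its coding exon was covered whole in both replicates. PCDHB15, the last beta gene, had 61.7% and 63.5%, and PCDHB2 had 49.9% and 49.4%. PCDHB4, PCDHB5, PCDHB6, PCDHB8 and PCDHB14 had 19.4% to 40.4% in replicate 1 and 0 in replicate 2. PCDHB1, which lies apart at the start of the cluster and is the least like the other beta genes, had 0 in both.

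In the gamma cluster, 18 of 22 genes were at least 50% covered in both replicates. PCDHGA5 and PCDHGB4 were covered whole in both. PCDHGA4 was the least covered gamma gene by the mean of replicates, with 54.9% in replicate 1 and 0 in replicate 2, and PCDHGA9 had 85.2% and 35.0%. These 2 had the widest gaps between replicates of all members. The C-type genes PCDHGC3, PCDHGC4 and PCDHGC5 had 46.5%, 100% and 87.0% in replicate 1 and 52.9%, 60.4% and 57.3% in replicate 2, unlike the alpha C-type genes at 0. Over all members replicate 1 was the higher in 39 and replicate 2 in 7, and its list was also the longer, with 36687 regions against 21770.

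**Figure D3:**
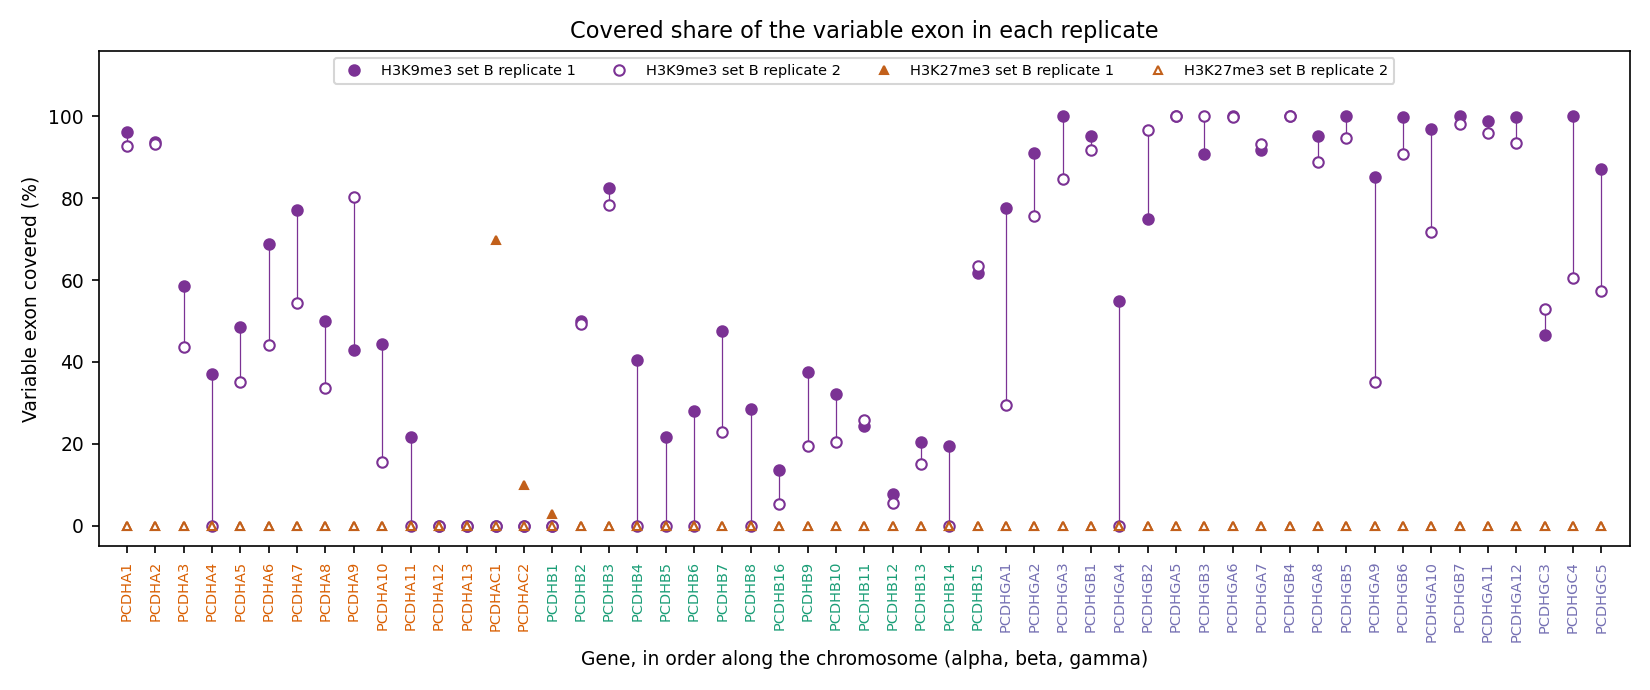
Percent of each member's variable exon covered (y axis) by H3K9me3 (circles, a line joining the replicates) and H3K27me3 (triangles), filled for replicate 1 and open for replicate 2, with genes in chromosome order. Gamma genes sit highest, alpha genes fall to 0 from PCDHA12 on, and H3K27me3 is above 0 for 3 genes in replicate 1 alone.

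Within a gene, H3K9me3 was densest downstream of the start, and in alpha and beta it mostly began there. Averaged over all members, 9.91% to 14.5% of the 1000 bases before the start were covered in the 2 replicates, 34.2% to 34.8% of the first 250 bases after it, and 54.4% to 67.7% of bases 500 to 2000. The most covered bin of 100 bases began 1500 bases into the gene in both replicates. The region's first edge lay inside the variable exon for 37 of 48 covered members in replicate 1 and 26 of 40 in replicate 2. Gamma differed in this: the edge lay at or before the start for 9 of its 22 covered genes in replicate 1 and 11 of 21 in replicate 2, against 2 and 3 genes of alpha and beta together. In gamma 31.0% and 26.3% of the 250 bases before the start were covered, and 66.4% and 63.2% of the first 250 after it. Regions were mostly separate from gene to gene, since 38 of 43 in replicate 1 and 37 of 39 in replicate 2 touched 1 member only. The others, 5 in replicate 1 and 2 in replicate 2, were all in gamma and touched 2 members each. For the later gene of such a couple, the edge before the start was that of a region shared with the gene before it. The authors' deposited fold over IgG of these regions ran from 3.85 to 7.11 in replicate 1 and from 4.10 to 8.45 in replicate 2, the highest being that on PCDHGA5. The medians of 5.05 and 5.14 lay close to those of the whole lists, 4.67 and 5.08.

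**Figure D4:**
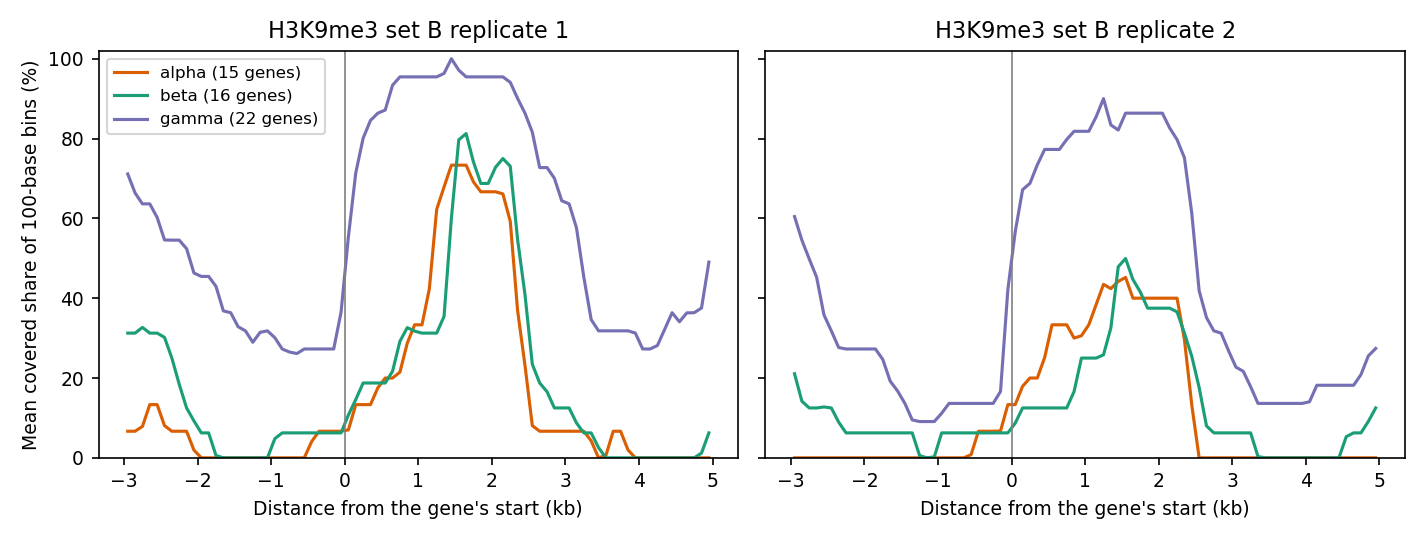
Mean percent of 100-base bins covered by H3K9me3 (y axis) against distance from the gene's start (kb, x axis), by cluster, with replicate 1 on the left and replicate 2 on the right. All 3 clusters rise after the start and are highest 1200 to 1700 bases into the gene, gamma being the highest throughout that stretch.

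The variable exons took up 26.6% of the 3 cluster spans and held 69.4% and 78.1% of the bases covered by H3K9me3 in them. The spans as a whole were covered over 20.7% and 14.5%, against 1.97% and 1.28% of the genome. The alpha span was covered over 7.91% and 5.53%, beta over 14.7% and 10.1%, and gamma over 43.0% and 30.3%. All 6 shared constant exons, which encode the common cytoplasmic ends of the alpha and gamma proteins, had 0 in both replicates. Pseudogenes of the clusters, which are copies of variable exons that make no full protein, were also covered: PCDHB18P had 97.8% and 80.7%, PCDHGB8P 81.7% and 86.0%, and PCDHA14 12.5% and 0. The interval between alpha and beta had none, while that between beta and gamma was covered over 52.8% and 43.3%. It holds TAF7, a subunit of the general transcription factor TFIID, and SLC25A2, a mitochondrial ornithine carrier, whose coding exons were covered over at least 94.9% in each replicate.

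Many variable exons resemble each other, which limits where short reads can be placed. The share of 50-base words of the variable exon found once in the genome had a median of 89.1% over the members, was under 100% in 47 of them, and was lowest for PCDHB8 at 52.9%. Its medians were 90.7% in alpha, 85.0% in beta and 90.6% in gamma. With the mean covered share of H3K9me3 it had a Spearman's rho of −0.60 across the 15 alpha genes, −0.26 across the 16 beta genes and −0.28 across the 22 gamma genes, and of 0.06 across all 53, whose clusters differ in level. These values are across genes of the same libraries and are a description. Counting only bases within unique words, the H3K9me3 minus H3K27me3 difference was 35.9 points in alpha, 23.7 in beta and 83.8 in gamma. The part of read placement in the values of single genes was not tested.

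H3K27me3 was listed on few members. The mean covered share was 1.56% in replicate 1 and 0 in replicate 2, and H3K9me3 exceeded H3K27me3 by 52.5 points over all members, by 35.1 in alpha, 25.6 in beta and 84.0 in gamma. The values of the 2 marks did not overlap in any cluster. With regions of −log10 q of at least 5 alone this no longer held in alpha, where H3K9me3 covered 20.5% in replicate 1 and 0 in replicate 2 and H3K27me3 covered 0 in both (difference 10.2 points, exact p = 1). The exact permutation test, two-sided, gave p = 0.333 for each, 0.333 also after Benjamini-Hochberg adjustment over the 4, which is the smallest that 2 libraries against 2 allow. No member had H3K27me3 within 1 kb of its start in both replicates, against 9.96% of all genes. In replicate 1 alone there were 3, against 12% of all genes: the C-type gene PCDHAC1 with 69.7% of its variable exon covered, PCDHAC2 with 9.91%, and PCDHB1 with 2.81%. In replicate 2 there was none, against 10.3% of all genes. These 3 genes had no H3K9me3 in either replicate.

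At the starts, H3K9me3 was the one mark found in both replicates. It lay within 1 kb of the start in 23 members, 3 alpha, 2 beta and 18 gamma, against 1.25% of all genes. By replicate it was 32 and 28 members, against 2.42% and 1.36%. That window reaches 1 kb into the gene, and 1 shared base was enough, so the count is not one of covered promoters. Of the 1000 bases before the start, 14.5% and 9.91% were covered on average in replicates 1 and 2. H3K27ac was found within 1 kb of the start in both replicates in no member, against 12.4% of all genes. In replicate 2 alone it was found at PCDHB2, against 21.5% of all genes, and in replicate 1 at none, against 16.1%. Inside the spans H3K27ac otherwise lay after the last variable exon of gamma. It was in both replicates in a region of the intron between the second and the third gamma constant exon (chr5:141508071-141508664).

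FLI1 was at the start of no member in all 4 libraries, against 35.4% of all genes, and at the start of 5 in any library, against 56.6%. Set A replicates 1 and 2 had it at 2 and 1 members, against 42.7% and 42.4% of all genes, and set B replicates 1 and 2 at 5 and 3, against 52.2% and 48.7%. PCDHB2 had it in 3 libraries, all but set A replicate 1. PCDHGB2 and the C-type gene PCDHGC3 also had it in 3, all but set A replicate 2. PCDHAC1 and PCDHAC2 had it in set B replicate 1 alone, and both also had H3K27me3 in set B replicate 1 alone. Those 2 lists share an IgG control, and the part of the control in these calls was not tested. Both set B libraries had it at 3 members, against 46.8% of all genes.

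Joined over the 4 libraries, 11 FLI1 regions lay inside the clusters, 5 in alpha, 1 in beta and 5 in gamma. Of these 4 were in all 4 libraries, and none of the 4 lay on a variable exon. One region, that at the start of PCDHGB2, overlapped H3K9me3, and of set B replicate 2 alone. H3K27ac of any replicate was overlapped by 3. Only the one in the gamma intron before the third constant exon overlapped H3K27ac of both replicates. The others, at the start of PCDHB2 and in gamma after the first constant exon, overlapped that of set A replicate 2 alone. The FLI1 and H3K27ac lists of set A replicate 2 share an IgG control. The 4 libraries had 8, 5, 10 and 10 regions in the spans, for set A replicates 1 and 2 and set B replicates 1 and 2. The mean was 6.5 in set A and 10 in set B, a difference of 3.5 that the exact permutation test, two-sided, gave p = 0.333, the smallest this design allows. The covered share of the spans did not follow the number: set A replicates gave 0.877% and 0.998%, and set B replicates 0.905% and 0.859%. Per Mb the clusters had 13.2, 8.24, 16.5 and 16.5 regions, against 11.6, 13.4, 12.6 and 9.68 in the genome.

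The 81 bases around the strongest summit of the 4 regions found in every library are shown because all libraries listed those regions. They are on the plus strand of hg38, and capitals mark GGAA or its reverse complement TTCC. The first pair lies in the alpha intron between the second and the third constant exon. The next, labelled by the first gamma constant exon, lies mostly in the intron after it, where its summit and the printed bases also lie. Only set A replicate 2 covered that exon (100%), and the regions of the other libraries began after it. Set B replicate 2 had 2 regions there, chr5:141495077-141495691 and chr5:141495925-141496497. The printed bases lie between them, so that list does not cover these bases. The last lies in the gamma intron between the second and the third constant exon.
alpha intron, first region (chr5:141002179-141002259): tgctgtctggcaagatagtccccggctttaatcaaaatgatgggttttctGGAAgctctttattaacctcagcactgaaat
alpha intron, next region (chr5:141004284-141004364): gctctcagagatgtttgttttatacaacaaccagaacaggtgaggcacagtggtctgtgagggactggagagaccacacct
gamma, around the first constant exon (chr5:141495802-141495882): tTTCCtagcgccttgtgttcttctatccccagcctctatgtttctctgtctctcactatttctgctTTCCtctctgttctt
gamma intron, before the third constant exon (chr5:141509023-141509103): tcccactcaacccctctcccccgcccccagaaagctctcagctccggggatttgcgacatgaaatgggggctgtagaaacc

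No GGAA stood in 2 of the 4 stretches. The longest run of adjacent GGAA units in any of the 11 regions was 2, in the gamma region mostly after the first constant exon. That region (chr5:141494665-141496795) ranked high in set A, at percentile 95.2 and 92.4 of the authors' deposited fold within the library's own list, and lower in set B, at 28.9 and 49.3. The next alpha intron region (chr5:141003720-141004776) stood at 89.7 and 94.4 for the set A replicates, then 84.8 and 65.4 for those of set B. The first alpha intron region stood between 72.0 and 84.7 and the last gamma region between 61.7 and 85.6 in the 4 libraries. Of the FLI1 regions at starts, PCDHB2 stood between 21.8 and 38.5, PCDHGC3 between 16.5 and 48.3, and PCDHGB2 between 30.9 and 69.9 in the 3 libraries that had them, and PCDHAC1 and PCDHAC2 at 68.3 and 46.3 in set B replicate 1. In set A they all ranked below the 4 shared regions, while in set B the ranks overlapped. A fold within a list depends on its depth, so these percentiles are a description.

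**Figure D5:**
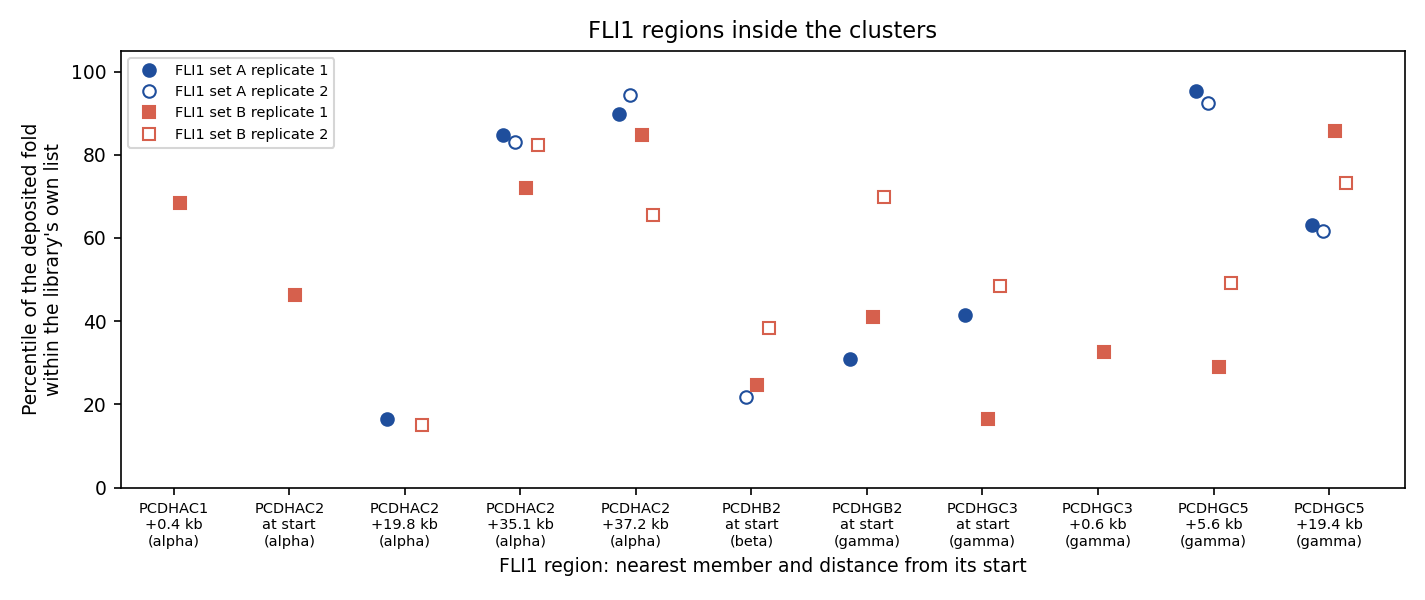
Percentile of the authors' deposited fold within each library's own list (y axis) for the 11 FLI1 regions inside the clusters (x axis, by nearest member, distance from its start and cluster), set A as circles and set B as squares, filled for replicate 1. The regions found in all 4 libraries lie beyond the variable exons and reach 95.2. The gamma region mostly after the first constant exon is higher in both set A libraries than in both set B libraries.

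Lists of related genes are read here against the shares of all genes given above. Among 12 non-clustered protocadherins, which are single genes of the same family, none had H3K9me3 at the start in both replicates, where 1.25% of all genes did, and 3 had H3K27me3 there (25%, against 9.96%): PCDH1, PCDH8 and PCDH11X. The other 9 had neither repressive mark at the start in both replicates. PCDH7 and PCDH19 had FLI1 at the start in all 4 libraries (16.7%, against 35.4% of all genes). Of 6 FAT and DCHS cadherins, giant relatives in planar polarity, FAT2, FAT3 and DCHS2 had H3K27me3 in both replicates (50%, against 9.96%). Of 11 genes of CTCF and cohesin, 8 had FLI1 in all 4 libraries (72.7%) and 5 had H3K27ac in both replicates (45.5%), and of 12 silencing factors 7 (58.3%) and 1 (8.33%) did, against 35.4% and 12.4% of all genes, with neither repressive mark at a start of these 2 lists in both replicates. Away from the start, the silencing factor ATF7IP had H3K9me3 over 46.7% and 43.1% of its longest coding exon in replicates 1 and 2. It was the 1 silencing factor with any base of that exon covered in both (8.33%, against 2.54% of all genes). Of 30 other genes within 500 kb, 19 had FLI1 at the start in all 4 libraries (63.3%), and 3 (10%) had H3K9me3 there in both replicates, which were TAF7, SLC25A2 and CD14, a co-receptor for bacterial lipopolysaccharide.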

How the data were processed

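CUT&RUN libraries of TC-32 cells were used as 10 peak lists, 1 per antibody library. Per the submitters' processing notes, the tools were cutadapt 4.4, Bowtie2, Picard 2.17.11 and MACS2 2.1.1 with build GRCh38 (hg38), whose roles and order are not given there. Per the file names, regions were called per library over the IgG of matching set and number, after removal of duplicates, in broad or narrow form. The deposited values of a region are the authors' score, their fold (a ratio of signal to control), their −log10 p and −log10 q, and for narrow lists the summit's offset. They were used only to describe, rank or filter regions within a list. The yeast spike-in named in the labels' protocols was not used here.

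From these, overlapping regions of a list were merged and the bases covered were counted with Python 3.11.15, numpy 2.4.6, pandas 2.3.3 and numba 0.67.0. Genes are the canonical transcripts of GENCODE 44. The variable exon is the first exon, and a start window is 1 kb either side of the start. Libraries were compared with exact permutation tests, as the replicate is the library. The counting was tested on simulated data. A region missing from a list says only that it did not pass the authors' threshold.

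The members and lists were chosen with earlier results of these data known. Named in full were the C-type genes and PCDHB1, the members with the highest and lowest covered share per cluster, those whose replicates differ most, those with FLI1 or H3K27ac at the start, the FLI1 regions in the most lists, and genes of other lists with a repressive mark in both replicates. PCDHA2, PCDHB15 and the other members named beside them were chosen after their values were seen, as was the measure on the longest coding exon.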

Additional observations from a re-analysis of the deposited data

Results flagged for a closer look

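Set A replicate 2 had 2 FLI1 regions in the alpha span where the other 3 libraries had 4 each, a lone value by Dixon's test at 95%. Its covered share of the span, 1.32%, was not apart from the 0.944% to 1.18% of the others. In the beta span set A replicate 1 had 0 regions where each of the others had 1, the region at the start of PCDHB2. Chance flags about 1 in 20 groups, and counts this small hold many ties.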

How the results depend on the processing

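Of 179 values under alternatives none turned in direction. Counts moved by over 1.5 times, and levels without a test by over 1 SD, in 27 of them, and tested differences, none of which could pass a threshold, were judged by direction alone. Keeping only regions of −log10 q of at least 5 lowered H3K9me3 most: to 4 members at the start, to a covered share of variable exons of 19.4% over all members, 10.2% in alpha, 4.21% in beta and 36.8% in gamma, to spans of 2.00%, 2.15% and 17.0%, and to 4 members with at least 50% of the coding exon. The H3K9me3 minus H3K27me3 differences fell with it, to 19.4, 10.2, 4.21 and 36.8 points over all, alpha, beta and gamma members, and in alpha the libraries of the 2 marks then overlapped (exact p = 1, in place of 0.333). The same filter brought H3K27ac in the gamma span to 0. H3K9me3 at the start counted 39 members with 2 kb either side, 8 where at least 50% of the window had to be covered, and 37 in either replicate. In either replicate H3K27me3 counted 3 members, H3K27ac 1, and the coding exon measure 35. For any base in both replicates the coding exon measure counted 40. FLI1 in any library counted 5. Using 2.5 kb after the start gave 35.3% for H3K9me3 and 0.28% for H3K27me3 in beta. Joining regions within 1 kb gave spans of 1.37% (FLI1, alpha), 1.61% (FLI1, gamma) and 0.882% (H3K27ac, gamma). Leaving out each replicate in turn gave 0 to 3 members for H3K27me3 (3 without replicate 2), 0 to 1 for H3K27ac (1 without replicate 1), and 0 to 2 for FLI1 (1 and 2 without set A replicates 1 and 2). The FLI1 set difference ran from 2 (without set A replicate 2) to 5 (without set A replicate 1). The cause was not tested, beyond fewer regions or libraries being required. With the replicate number as a block, the H3K9me3 minus H3K27me3 differences stayed at 52.5, 35.1, 25.6 and 84.0 points and the FLI1 difference at 3.5, each with an exact sign-flip p of 0.5, the smallest possible. Deviations of same-numbered H3K9me3 and H3K27me3 libraries correlated at −0.109 over the 53 members and −0.016 over all genes, and those of the FLI1 sets at −0.021 and −0.010. These correlations do not show a pairing, although H3K9me3 and H3K27me3 lists of the same number share an IgG control. Because the first lies below −0.1, the crossed pairing was also run, chosen after seeing the data, and like the uncrossed block it gave 0 calls.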
